A study of Mus musculus with 17 samples.

Results

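KCl was added to melanoma conditioned medium, and the RNA of mouse macrophages kept in it was compared with that of macrophages in the conditioned medium alone. The members are the 3 libraries labelled as medium with KCl and the 3 labelled as medium alone, 6 of the 17 libraries of the series, chosen by their treatment labels and not by any measured value. They carry 13018 genes that passed a low-count filter, of the 55401 identifiers in the count table. All cells were primary bone marrow-derived macrophages, which are grown in culture from marrow precursors, of the C57BL/6J strain. The medium, called TCM below, had been conditioned by B16F10, a mouse melanoma line. Treatment lasted 6 hours, and the final KCl concentration was 40 mM. For reference, 2 libraries of cells in TCM with NaCl at the same 40 mM and 3 control libraries of the same strain are given beside the members. The labels do not describe the treatment of the control cells. None of these groups carries a deletion or transgene in the labels, and the labels name an isotonic KCl medium only for other groups of the series. They do not say how many mice were used or whether animals were pooled, so p-values describe the variation among these libraries, which may be only technical.

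Potassium is the main cation inside cells, and its steep gradient across the membrane sets the resting voltage. Raising it outside the cell depolarises the membrane and slows potassium efflux, which is a known trigger of the NLRP3 inflammasome. Adding a salt to complete medium also raises its osmolarity. Cells answer hyperosmotic stress through NFAT5, a transcription factor that switches on carriers and enzymes for organic osmolytes such as myo-inositol, betaine, taurine and sorbitol. The NaCl group had the same concentration of a salt without added potassium.

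Counts per library were 15458703 to 16460805 with TCM and 13503869 to 17048265 with TCM + KCl. Levels below are CPM, counts set relative to library size, scaled by trimmed-mean (TMM) factors. They compare 1 gene between libraries, not genes with each other. The KCl libraries stood apart from the others in 3 ways. First, they differed more among themselves: the chi-square per degree of freedom between replicate pairs was 31.4 to 97.1 with TCM + KCl and at most 6.13 in the other 3 groups. Second, short transcripts had gained and long ones lost in them. The slope of log2 level on log2 transcript length was −0.081, −0.098 and −0.022 in KCl libraries 1, 2 and 3, and −0.006 to 0.035 with TCM. A fit that carries each library's slope as a covariate is called the length-adjusted fit below. The slope is 1 value per library, taken from these same levels, and a gene's own length does not enter its model. The slopes of the KCl and TCM libraries do not overlap, so the covariate also takes up part of the treatment difference. A call lost in that fit therefore does not show that the change depends on length. In addition, they held transcripts of lung epithelium. The 11 epithelial markers listed summed to 21.4 to 28.3 CPM with TCM + KCl, 0.855 to 1.79 CPM with TCM, 1.21 to 1.81 CPM with TCM + NaCl and 1.36 to 2.55 CPM in control. Scgb1a1, the secretoglobin of airway club cells, had 244, 143 and 243 counts with KCl and 22, 19 and 11 with TCM. Sftpc, a surfactant protein of alveolar cells, had 99, 112 and 51 counts with KCl, and 1 count in all of the other 14 libraries together. Cyp2f2 had 9, 16 and 17 counts and Scgb3a2 had 6, 6 and 6, while Krt18 stood at 1, 0 and 0 counts. Sftpa1, looked at after these values were seen, had 34, 17 and 9 counts with KCl and 0 in every other library. The fixed markers made up 0.0019% to 0.0023% of the counts of a KCl library, and the part of such RNA in other results was not tested. Of the macrophage markers, Lyz2 (lysozyme) stood at 21306 to 24381 CPM in the 6 libraries, and the summed level was 31701 to 33650 CPM with TCM and 29527 to 34411 CPM with KCl. Of these 12 markers, 5 fell and 1 rose, and 9 were lower without KCl library 3. Adgre1, which encodes F4/80, fell from 2380, 2460 and 2570 CPM to 1200, 1170 and 1400 CPM (log2 fold change −0.99 with SE 0.10, adjusted p = 0.00013). The 8 melanoma markers summed to 4530 to 4753 CPM with TCM and 3135 to 5819 CPM with KCl, nearly all of it Gpnmb, which macrophages also express (2961 to 5595 CPM). Tyr and Dct, defining genes of pigment cells, had 0 counts in the 6 libraries. Markers of T cells, natural killer cells and erythroid cells summed to at most 11.5, 0.211 and 2.03 CPM in these 6 libraries. Mast cell and basophil markers summed to 4.72 to 5.31 CPM with TCM and 8.43 to 9.93 CPM with KCl. With NaCl the sum was 7.31 to 7.59 CPM, and in control 5.76 to 7.48 CPM. Nearly all of it was Mcpt8 and Kit, while Mcpt4, Fcer1a and Tpsb2 had 0 counts in the 6 libraries. Stromal and endothelial markers summed to 758 to 827 CPM with TCM and 474 to 762 CPM with KCl, with 3 of 9 tested lower and 1 higher, and their part in other results was not tested. For these markers, 0 were lower in the length-adjusted fit, and 1 was lower without TCM library 1, 2 or 3 or KCl library 1 or 2. Col1a1, a collagen gene, had 154, 164 and 192 CPM with TCM and 62, 58.2 and 145 CPM with KCl.

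**Figure D1:**
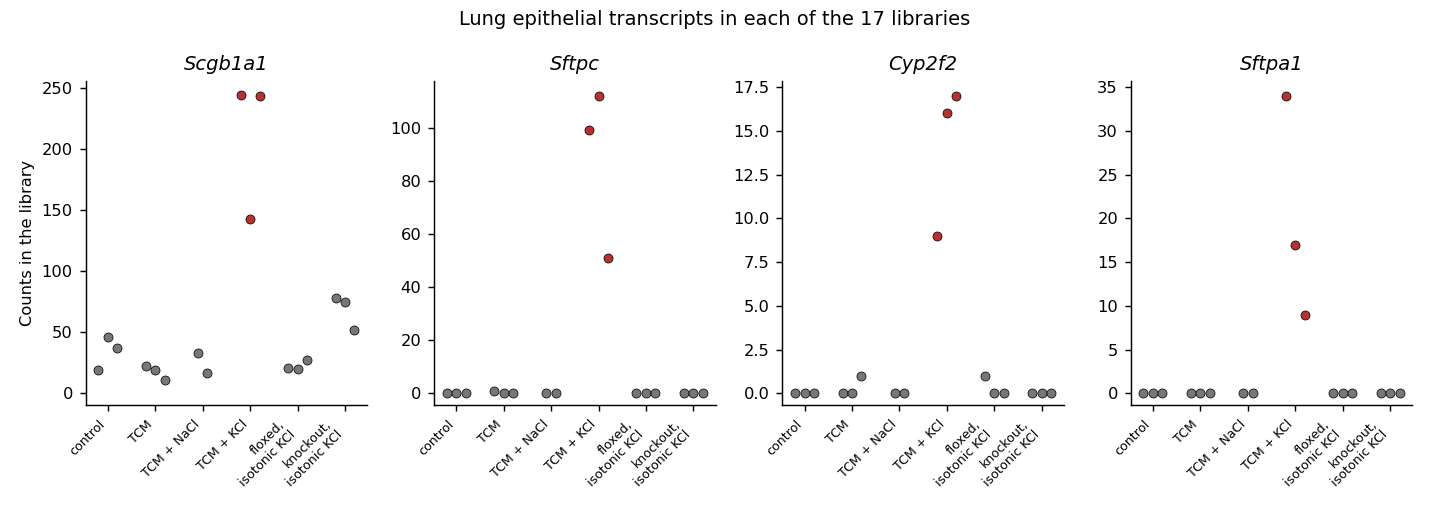
Counts of 4 lung epithelial genes (y axis) in each of the 17 libraries (points), by group (x axis), with the KCl libraries in red. Sftpc and Sftpa1 lie at 51 to 112 and 9 to 34 counts in the KCl libraries and at 0 or 1 elsewhere, and Scgb1a1 at 143 to 244 against at most 78.

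Changes ran through a large share of the measured transcriptome. By edgeR's quasi-likelihood test with Benjamini-Hochberg adjustment, 6512 of 13018 genes passed an adjusted p of 0.05, which is 50% of genes tested. Of these, 3133 were higher with KCl (24.1% of genes tested) and 3379 lower (26.0%), and 2424 (18.6%) differed by at least 2-fold. These shares are the background for each list below, whose counts are genes past this threshold. Where another scaling, the length-adjusted fit, the joint fit of 11 libraries or the loss of 1 library moved a list's count by over 1.5 times, that count follows, unless it moved by 1 gene. Such moves by 1 gene are not listed, so very small counts may be less stable than they look. A value alone in brackets after a gene is its log2 fold change, KCl over TCM. The median log2 fold change over all genes was −0.02. Scaling by library totals alone moved that median to −0.23, and 31.5% of called genes were then higher in place of 48.1%, so fold changes near 0 depend on the scaling. In bulk RNA, fewer cells of a type and less RNA per cell cannot be told apart. KCl library 3 lay nearest to the TCM libraries in 59.6% of the called genes, and KCl library 2 lay farthest in 52.5%.

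**Figure D2:**
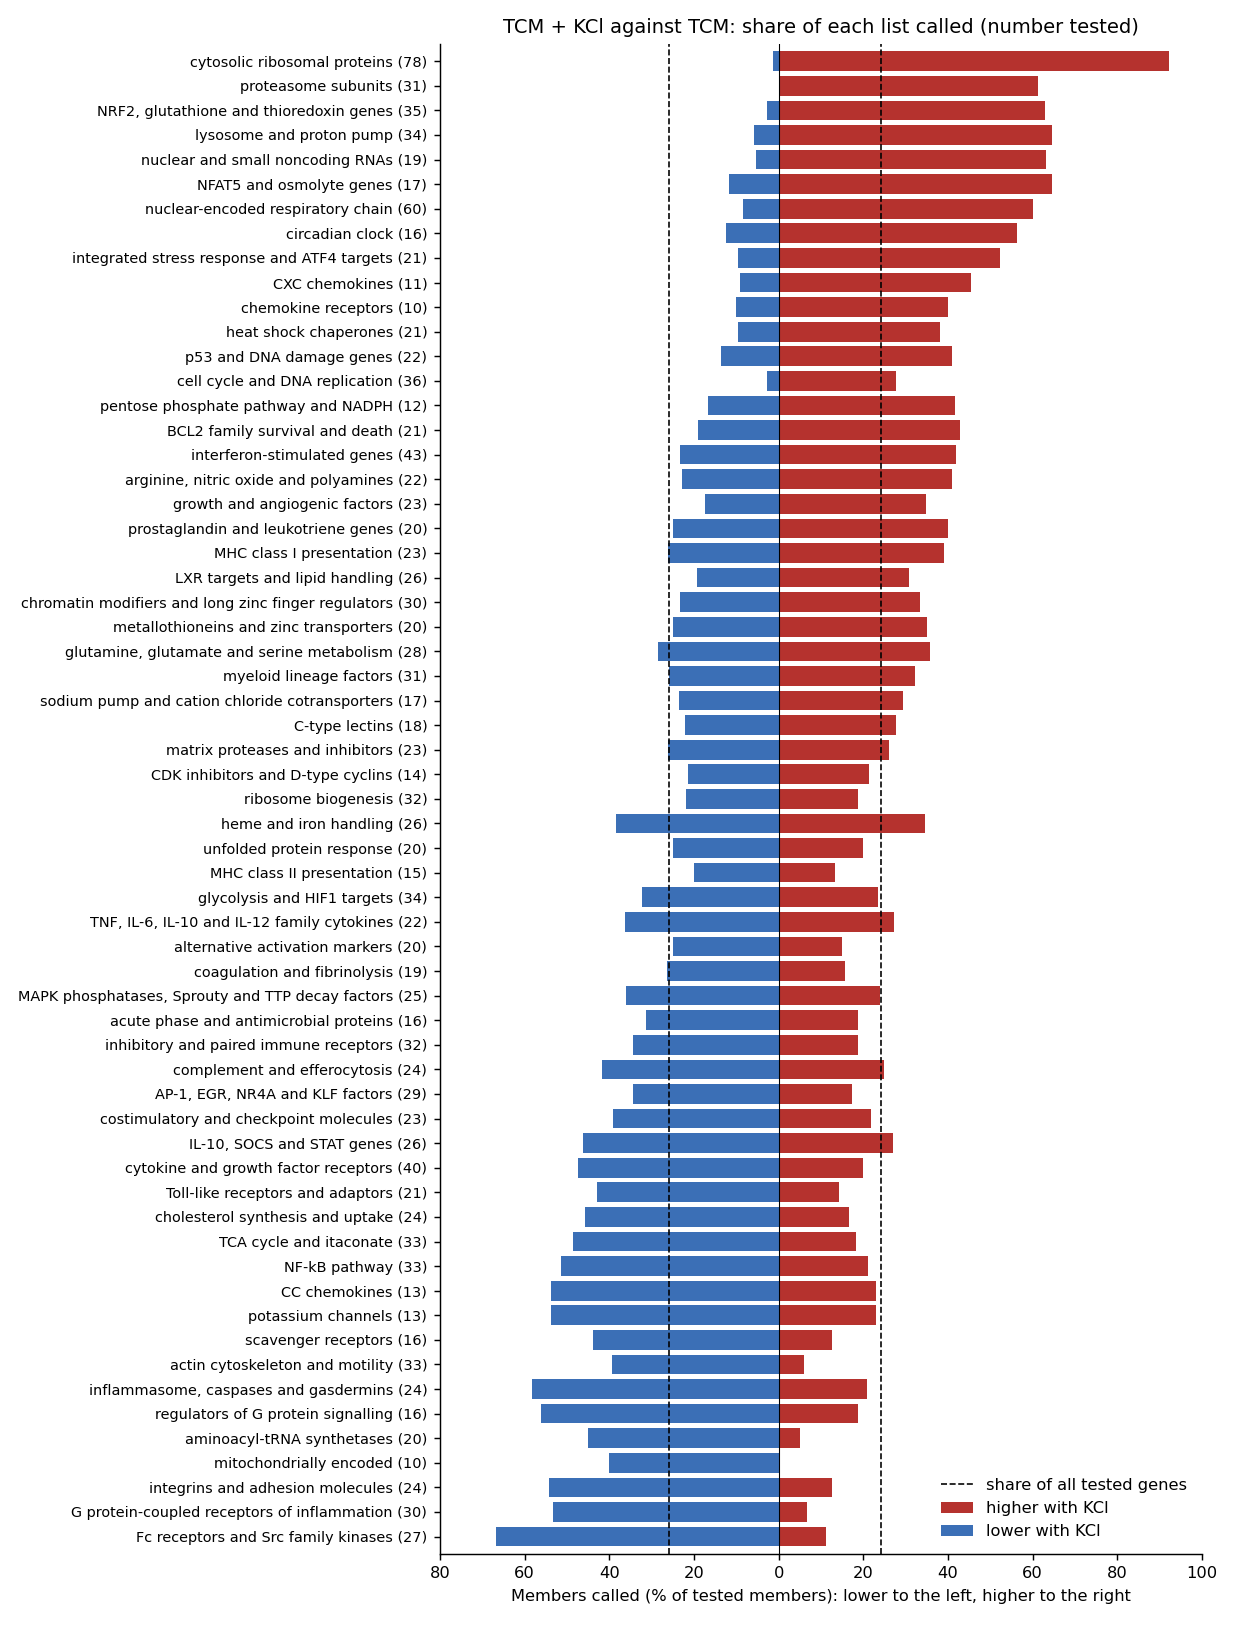
Share of the tested members of each gene list (y axis, number tested in brackets; lists with at least 10 tested) called higher (red, to the right) or lower (blue, to the left) with KCl, in percent, with dashed lines at 24.1% and 26.0%, the shares of all tested genes. Ribosomal protein genes lie on the higher side with 72 of 78, and the Fc receptor and Src kinase list on the lower side with 18 of 27.

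Among genes that handle ions, potassium channels split. Kcnj2, which encodes the inward rectifier Kir2.1, stood at 82.4, 84.7 and 85.5 CPM with TCM, 306, 330 and 325 CPM with TCM + KCl, 234 and 283 CPM with TCM + NaCl and 40.7 ± 3.08 CPM (SD, n = 3) in control. The KCl and TCM values lay far apart (log2 fold change 1.92 with SE 0.09, adjusted p = 3.4e-06). Of 13 channel genes tested, 3 rose and 7 fell, with a median of −0.83. For these channels, 4 were lower in the length-adjusted fit. Kcnk13, a two-pore channel of microglia and macrophages, rose from 46.8, 45.6 and 46.2 to 103, 84.7 and 99.9 CPM (1.05). Kcnn4, the calcium-activated KCa3.1 channel, fell (−0.87), as did Kcnab2, a beta subunit of voltage-gated channels (−1.29). Of 17 genes of the sodium pump and the cation chloride cotransporters, 5 rose and 4 fell, near the background in both directions. For these pumps and carriers, 1 was lower in the length-adjusted fit. The kinase Sgk1, which raises sodium and osmolyte transport, rose from 109, 108 and 107 to 366, 389 and 293 CPM (log2 fold change 1.68 with SE 0.12, adjusted p = 2.4e-05). The potassium chloride cotransporters Slc12a7 (−1.11) and Slc12a4 (−0.97) fell, both carriers that export potassium with chloride. The call on Slc12a4 was lost in the length-adjusted fit (adjusted p = 0.069). Of the 4 tested subunits of the volume-regulated anion channel, which opens when cells swell, 3 fell and 0 rose. Lrrc8c had the largest change, from 41.4, 44.1 and 49 to 17, 13.5 and 21 CPM (−1.39), while the obligate subunit Lrrc8a stood at 0.4 (adjusted p = 0.062). The Lrrc8d call was lost without TCM library 2, TCM library 3 or KCl library 1 (adjusted p = 0.074, 0.081 and 0.084). For the channel subunits, 1 was lower in the length-adjusted fit and without TCM library 2 or 3 or KCl library 1.

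Of 17 members of the NFAT5 list, 11 rose and 2 fell (8 rose and 2 fell with library totals), with a median log2 fold change of 0.61 beside −0.02 over all genes. Nfat5 itself stood at 38, 43.3 and 50.3 CPM with TCM and 58.8, 64.2 and 79.2 CPM with KCl (log2 fold change 0.61 with SE 0.15, adjusted p = 0.0083), with no overlap between the groups. That call was lost with library totals as the scaling (adjusted p = 0.068). Slc5a3, which imports myo-inositol, had 10.4, 10.4 and 9.77 CPM with TCM and 136, 145 and 103 CPM with KCl. The level in control cells, 47.1 ± 2.56 CPM (SD, n = 3), lay between the values of these groups. Slc5a3 overlaps Mrps6, which also rose, on the same strand, so reads of the pair may not be fully separable. The betaine carrier Slc6a12 had 18.7, 17.7 and 18.3 CPM with TCM, 72.5, 64.1 and 84.4 CPM with KCl and 110 and 113 CPM with NaCl (log2 fold change 2.01 with SE 0.13, adjusted p = 1.4e-05). Akr1b3, the aldose reductase that makes sorbitol, rose from 87.8, 80.9 and 82.4 to 383, 328 and 304 CPM (2.01). The amino acid carrier Slc38a2 (1.98) and the chaperone Hspa4l (0.75) rose too. For the taurine carrier Slc6a6 the value was 0.09 (adjusted p = 0.74). The members that fell were Gpr65, an acid-sensing receptor (−1.81), and Slc7a5, a carrier of large amino acids (−0.86, adjusted p = 0.16 in the length-adjusted fit).

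The promoters of these genes were searched in RefSeq windows of 300 bases (250 before and 50 after the start, GRCm38.p6) for TGGAAA, the core of the tonicity element that NFAT5 binds, on both strands. Of the 11 risen members 9 matched the table, with 18 windows, and 3 windows (16.7%) held it, beside 21.4% of all 32841 windows. The windows with a match belong to Sgk1 and Slc6a12; Slc5a3 had none in its window. The Slc6a12 sequence is shown because it had the highest fold change among risen members that held the motif. It is the 250 bases before the start, on the plus strand, with the motif in capitals.
Slc6a12 promoter, chr6:121342324-121342573: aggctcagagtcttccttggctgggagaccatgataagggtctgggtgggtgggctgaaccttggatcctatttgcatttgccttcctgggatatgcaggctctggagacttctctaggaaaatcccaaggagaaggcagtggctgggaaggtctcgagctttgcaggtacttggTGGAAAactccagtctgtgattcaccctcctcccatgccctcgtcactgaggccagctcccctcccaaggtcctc
The match lies 75 bases before the start, and it is a description of the letters, not of binding.

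Of 35 genes of the NRF2, glutathione and thioredoxin list, 22 rose and 1 fell, with a median of 0.59. Gclc, the catalytic subunit of the enzyme that limits glutathione synthesis, had 77.3, 82.3 and 89 CPM with TCM and 304, 350 and 407 CPM with KCl (log2 fold change 2.09 with SE 0.13, adjusted p = 1.4e-05). With NaCl it had 418 and 460 CPM, above each KCl library. Prdx6, a peroxiredoxin that reduces phospholipid peroxides, rose from 143, 149 and 136 to 587, 537 and 522 CPM (log2 fold change 1.93 with SE 0.09, adjusted p = 4e-06). Other risen members were the carbonyl reductase Cbr3 (1.61), the peroxiredoxin Prdx1 (1.5), the microsomal glutathione transferase Mgst2 (1.43), the peroxide reducer Gpx4 (1.11), the superoxide dismutase Sod1 (1.11) and the sulfiredoxin Srxn1 (1.0). Keap1, which holds NRF2 for degradation, rose (0.58), as did Nfe2l2, which encodes NRF2 (0.47). The calls on Gpx4, Keap1 and Mgst2 were lost in the length-adjusted fit (adjusted p = 0.71, 0.086 and 0.095). The member that fell was the mitochondrial aldehyde dehydrogenase Aldh1b1 (−1.9). The list kept 20 to 25 higher members when 1 library was left out in turn, and 18 in the length-adjusted fit. For the same list, 3 were lower in the joint fit of 11 libraries and without KCl library 3, and 4 were lower with library totals.

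The antioxidant response element core searched was TGACNNNGC, on both strands. Of the 22 risen members 18 matched, with 24 windows, and 8 windows (33.3%) held it, 1 each of Gclm, Gstm5, Mgst1, Nfe2l2, Prdx1, Sod1, Srxn1 and Txnrd1. Among all windows the share was 12.4%. The list was drawn up by pathway, and its uncalled members were not counted apart. Whether the share goes with the rise under KCl or with membership of the list was therefore not tested. The AP-1 motif TGANTCA was in 5 of these 24 windows (20.8%) and in 7.81% of all, and it can overlap the antioxidant element, since both start with the letters TGA and may share them. The Gclm window is shown because it was the only one with the element in its 250 bases before the start and no annotated exon base there. Gclm, the modifier subunit of the enzyme of glutathione synthesis, was chosen here after its values were seen. The sequence is on the plus strand, with the element in capitals (here on the opposite strand).
Gclm promoter, chr3:122245307-122245556: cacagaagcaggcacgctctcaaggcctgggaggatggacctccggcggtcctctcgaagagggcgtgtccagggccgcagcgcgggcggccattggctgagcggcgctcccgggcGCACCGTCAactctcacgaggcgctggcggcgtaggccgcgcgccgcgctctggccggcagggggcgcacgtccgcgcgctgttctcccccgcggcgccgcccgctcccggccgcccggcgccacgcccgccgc
The match lies 134 bases before the start. In the 6 libraries Gclm rose from 618, 615 and 632 to 1100, 1120 and 1160 CPM (0.85), and Prdx1 rose from 7560, 6950 and 6550 to 20200, 23600 and 16300 CPM.

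Stress genes moved unevenly between pathways. Of 21 tested genes of the integrated stress response, which ATF4 drives when translation is held back, 11 rose and 2 fell (median 0.41). For this response, 7 were higher with library totals. Atf4 had 316, 314 and 308 CPM with TCM, 1040, 1280 and 777 CPM with KCl and 402 and 415 CPM with NaCl (log2 fold change 1.71 with SE 0.17, adjusted p = 9.6e-05), so each KCl library lay above every TCM and NaCl library. The cystine carrier Slc7a11 rose from 1080, 1060 and 1140 to 2670, 2880 and 2550 CPM (1.3), with 3010 and 3210 CPM with NaCl. Its promoter held the ATF4-C/EBP core TGATGNAA on each strand, the only one of the 12 windows of risen members that did (8.33%, beside 3.97% of all windows). Of the 2 windows of fallen members, 1, of Vldlr, held it as well. The Slc7a11 window is shown because it holds the core on both strands, as the 250 bases before the start on the minus strand, with both matches in capitals.
Slc7a11 promoter, chr3:50443614-50443863: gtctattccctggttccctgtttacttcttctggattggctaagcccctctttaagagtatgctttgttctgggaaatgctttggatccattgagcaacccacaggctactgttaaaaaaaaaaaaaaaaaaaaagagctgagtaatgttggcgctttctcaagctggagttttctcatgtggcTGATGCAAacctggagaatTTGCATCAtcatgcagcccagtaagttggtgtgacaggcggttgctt
Of 20 aminoacyl-tRNA synthetases, which ATF4 can also induce, 1 rose and 9 fell (median −0.35). For the synthetases, 4 were lower in the length-adjusted fit. The one that rose was the cysteinyl enzyme Cars (1.14), and among those that fell were Lars (−1.13) and Mars (−1.23), the last losing its call in the length-adjusted fit (adjusted p = 0.062). Heat shock chaperones had 8 of 21 higher and 2 lower, with Hspa1b (1.14) higher and the constitutive chaperone Hspa8 (−0.72) lower. For the chaperones, 4 were higher in the length-adjusted fit, 5 were higher without TCM library 3, and 4 were lower without KCl library 3. The unfolded protein response of the endoplasmic reticulum had 4 of 20 higher and 5 lower, near the background in both directions, with Herpud1 (−0.56) and Pdia4 (−0.56) lower. For that response, 1 was higher with library totals and in the length-adjusted fit, 2 were higher without TCM library 1, 2 or 3 or KCl library 1, 8 were lower with library totals and without KCl library 3, and 3 were lower in the length-adjusted fit and without TCM library 1, 2 or 3 or KCl library 1.

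Arginine and polyamine genes that rose included the arginase of mitochondria, Arg2, at 6.51, 6.58 and 6.41 CPM with TCM and 35.7, 31.5 and 32.6 CPM with KCl (log2 fold change 2.35 with SE 0.12, adjusted p = 4.5e-06). The polyamine catabolic enzyme Sat1 rose from 549, 549 and 515 to 2180, 2530 and 1660 CPM (1.97), and the brake on polyamine synthesis Oaz1 rose as well (1.25). The arginine carriers Slc7a2 (−0.74) and Slc7a1 (−0.61) fell, the latter losing its call in the length-adjusted fit (adjusted p = 0.36). In all 9 of 22 rose and 5 fell. For arginine and polyamine genes, 4 were higher in the length-adjusted fit, 3 were lower in the length-adjusted fit and without TCM library 2 or 3, and 2 were lower without TCM library 1 or KCl library 1.

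Ligands differed within families. In the interleukin 1 family, whose members are potent fever-inducing and neutrophil-recruiting signals, 3 of 6 fell and 1 rose. Il1a had 402, 438 and 442 CPM with TCM, 59.9, 73.2 and 87.6 CPM with KCl and 184 and 179 CPM with NaCl (log2 fold change −2.54 with SE 0.15, adjusted p = 9.4e-06). Il1b fell from 4270, 4150 and 3860 to 737, 715 and 739 CPM (log2 fold change −2.5 with SE 0.09, adjusted p = 1.7e-06), with Il1bos on the opposite strand. Il18 fell from 48.8, 44.2 and 47.3 to 13.5, 14.3 and 8.96 CPM (−1.95). Il1rn, the natural antagonist of the interleukin 1 receptor, stood at −0.04 (adjusted p = 0.71). Il1f9 had the family's positive value (0.49), lost as a call without TCM library 3 (adjusted p = 0.054).

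Of 22 further cytokines, 6 rose and 8 fell. For these cytokines, 2 were higher in the length-adjusted fit. Il15, which maintains natural killer and memory T cells, rose from 11.2, 14.4 and 13.4 to 58.3, 58.3 and 49.5 CPM (log2 fold change 2.08 with SE 0.13, adjusted p = 1.5e-05). Il10, an anti-inflammatory cytokine, fell from 24.1, 24.8 and 21.6 to 4.79, 3.32 and 2.22 CPM (log2 fold change −2.78 with SE 0.23, adjusted p = 5.4e-05), with 4.23 and 4.13 CPM with NaCl and 4.93 ± 0.718 CPM (SD, n = 3) in control. Il12a, the p35 subunit of interleukin 12, fell from 13.6, 12.6 and 15.4 to 1.76, 2.95 and 3.73 CPM (−2.3). Il15, Il10 and Il12a were named for the size of their change, and their groups did not overlap. Of the 22 cytokines, groups were apart in 7 toward higher and in 9 toward lower levels with KCl. Lack of overlap is thus no mark of these 3 genes.

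Of 11 CXC chemokines 5 rose and 1 fell. Cxcl5 rose from 136, 128 and 124 to 259, 285 and 226 CPM (0.98) and Cxcl3 from 1250, 1160 and 1080 to 2370, 2630 and 1890 CPM (0.97), while the platelet chemokine Ppbp fell (−0.98). CC chemokines had 3 of 13 higher and 7 lower. For CC chemokines, 0 were higher in the length-adjusted fit. Ccl7, a monocyte attractant, rose from 137, 127 and 111 to 307, 391 and 200 CPM (1.25), a call lost in the length-adjusted fit (adjusted p = 0.13). Ccl22, which draws regulatory T cells, fell (−1.15), and so did Cx3cl1, fractalkine (−1.52). Among 23 growth factors 8 rose and 4 fell. For growth factors, 5 were higher with library totals and without TCM library 3 or KCl library 1, and 2 were lower in the length-adjusted fit and without TCM library 1, 2 or 3 or KCl library 1. Pdgfa rose from 18.1, 20.4 and 18.7 to 97.4, 82.1 and 72.6 CPM (log2 fold change 2.13 with SE 0.13, adjusted p = 1.2e-05), and its family member Pdgfb fell (−0.6). Csf3, the granulocyte growth factor, fell from 27.1, 23.6 and 24.1 to 8.73, 9.78 and 7.19 CPM (−1.56).

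**Figure D3:**
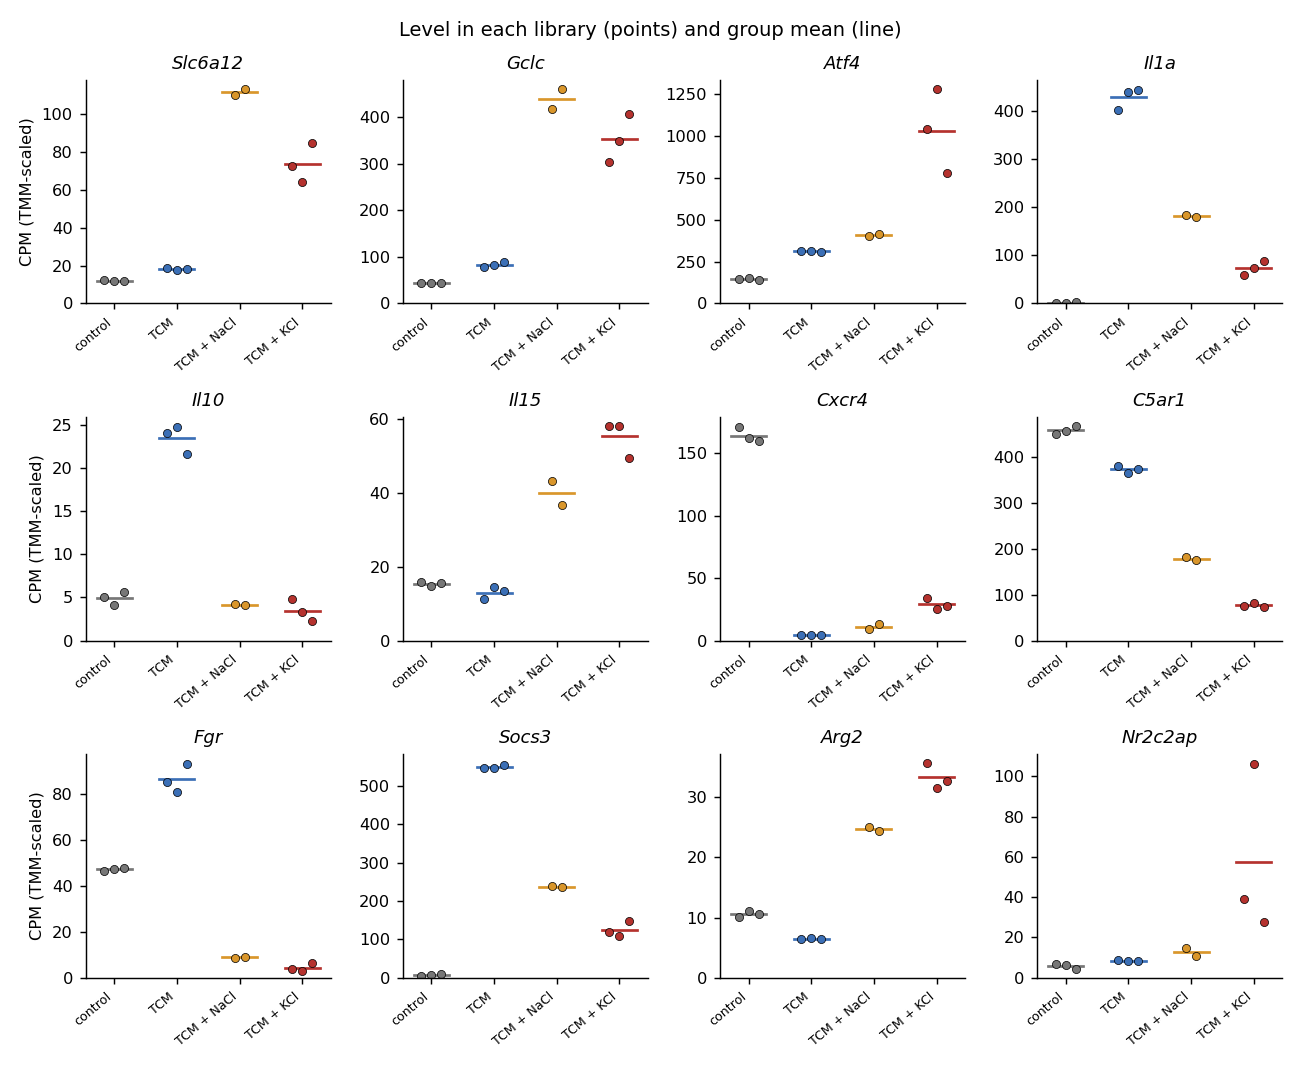
Level of 12 genes (CPM scaled by TMM factors, linear axes from 0) in each library of the control, TCM, TCM + NaCl and TCM + KCl groups, with the group mean as a line. All 12 genes were picked among called genes, and for Cxcr4, Fgr and Nr2c2ap lack of overlap was a condition of choice. The gap between KCl and TCM libraries in each panel thus partly reflects that choice. Nr2c2ap shows the spread among KCl libraries, from 27.5 to 106 CPM.

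Receptor lists differed in balance. Among 10 chemokine receptors 4 rose and 1 fell (median 0.28). Among 18 C-type lectins 5 rose and 4 fell (median 0.03), near the background of 24.1% and 26.0%. For the lectins, 7 were lower with library totals, and 9 were lower in the length-adjusted fit. Among G protein-coupled receptors that sense inflammatory signals, 16 of 30 fell and 2 rose (median −0.88), where 26.0% of all genes fell. C5ar1, the receptor of the complement fragment C5a, had 381, 365 and 373 CPM with TCM and 75.5, 82.7 and 73.2 CPM with KCl (log2 fold change −2.28 with SE 0.09, adjusted p = 2e-06). Gpr84, which senses medium-chain fatty acids, fell from 165, 164 and 183 to 22.9, 19.2 and 27.3 CPM (−2.89), and the UDP receptor P2ry6 from 19.3, 19.4 and 21.9 to 3.17, 2.49 and 2.35 CPM (−2.92). The formyl peptide receptors Fpr1 (−1.47) and Fpr2 (−1.78), the adenosine receptors Adora2b (−1.71) and Adora3 (−2.01) and the oxysterol sensor Gpr183 (−1.45) fell too. Those that rose were the receptor of platelet-activating factor, Ptafr (0.49), and a sphingosine-1-phosphate receptor, S1pr2 (0.44), the last not called with library totals as the scaling (adjusted p = 0.12). The Adora3 call was lost without TCM library 1 or 2 (adjusted p = 0.058 and 0.086), and the Gpr183 call in the length-adjusted fit (adjusted p = 0.33). Adgre1 and 4 further macrophage markers fell beside these receptors, and the part of that shift in them was not tested.

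Immunoglobulin receptors and the kinases that carry their signal had 18 of 27 members lower and 3 higher (median −0.62). The inhibitory receptor Fcgr2b fell from 402, 379 and 373 to 60.3, 64.9 and 78.3 CPM (log2 fold change −2.51 with SE 0.12, adjusted p = 4e-06), and the activating receptors Fcgr1 (−1.03) and Fcgr3 (−0.75) fell. For the shared signalling chains Fcer1g and Tyrobp the values were 0.12 and 0.19 (adjusted p = 0.27 and 0.099). The Src family kinase Fgr stood at 85, 81 and 92.9 CPM with TCM and 3.87, 3.04 and 6.21 CPM with KCl (−4.28). Its relatives Lyn (−1.6) and Fyn (−0.86) fell too. The adaptor Dok2, a brake on such kinases, fell from 100, 96 and 93.4 to 13.9, 12.2 and 10.7 CPM (log2 fold change −2.99 with SE 0.12, adjusted p = 2e-06). A kinase of another family, Tec, rose from 39.5, 43.6 and 40.7 to 151, 144 and 130 CPM (log2 fold change 1.77 with SE 0.10, adjusted p = 8.3e-06). In the length-adjusted fit 11 of the 27 were lower and 3 higher, and the calls on Fcgr3 and Fyn were lost (adjusted p = 0.56 and 0.054).

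Some single receptors were higher. The chemokine receptor Cxcr4 had 4.19, 4.26 and 4.27 CPM with TCM, 34.5, 25 and 27.4 CPM with KCl, 9.51 and 12.9 CPM with NaCl and 164 ± 5.68 CPM (SD, n = 3) in control (log2 fold change 2.76 with SE 0.16, adjusted p = 8.9e-06). Every KCl library was thus above the TCM and NaCl libraries and below control. Xcr1, a chemokine receptor typical of cross-presenting dendritic cells, had 0.399, 1.74 and 2.20 CPM with TCM and 17.4, 21.7 and 15.1 CPM with KCl (3.61). The dendritic cell markers of the fixed list, Xcr1 among them, summed to 62.9 to 70.7 CPM with TCM and 50.7 to 61.8 CPM with KCl. Most of that sum was Itgax, with 67.2, 57.2 and 65 CPM with TCM and 37.4, 25.1 and 43.5 CPM with KCl. The sum thus says little of the rarer markers. Clec9a, near the floor, had 0.0665, 0.194 and 0.366 CPM with TCM and 0.634, 0.646 and 0.85 CPM with KCl. The part of dendritic cell RNA in the Xcr1 rise was not tested. Cd28, best known as a costimulatory receptor of T cells, rose from 3.32, 2.39 and 3.11 to 20.7, 22.2 and 28 CPM (log2 fold change 3.0 with SE 0.19, adjusted p = 1.5e-05). The T cell markers of the fixed list summed to 7.58 to 11.5 CPM with TCM and 6.37 to 10.9 CPM with KCl. Most of that sum was Cd4, at 5.9 to 10.7 CPM in the 6 libraries. Tnfrsf26, a TNF receptor family member, rose from 20.1, 21.8 and 23.2 to 113, 121 and 127 CPM (2.46), and Olr1, a receptor for oxidised low-density lipoprotein, from 9.17, 9.16 and 11.5 to 38.6, 42.5 and 38.3 CPM (1.99).

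Of 40 cytokine and growth factor receptors 8 rose and 19 fell (median −0.39). For these receptors, 4 were higher with library totals, 5 were higher without TCM library 3, and 9 were lower in the length-adjusted fit. Among the lower were the granulocyte growth factor receptor Csf3r (−2.93) and the interleukin 6 receptor Il6ra (−1.91). Toll-like receptors and their adaptors had 3 of 21 higher and 9 lower. Tlr4, the endotoxin receptor, rose from 54.7, 55.4 and 59.7 to 108, 116 and 109 CPM (log2 fold change 0.96 with SE 0.09, adjusted p = 8.8e-05). Tlr8, which detects single-stranded RNA, fell from 38.7, 36.9 and 48.3 to 5.49, 5.53 and 12.9 CPM (log2 fold change −2.36 with SE 0.31, adjusted p = 0.00043). Inhibitory and paired receptors had 6 of 32 higher and 11 lower. For the inhibitory list, 3 were higher with library totals and without TCM library 1, and 2 were higher in the length-adjusted fit. Cd300e, an activating member, fell from 114, 116 and 123 to 7.25, 7.38 and 9.81 CPM (−3.85) and the sialic acid receptor Siglece from 97.6, 96.2 and 97.6 to 13.8, 11.1 and 11.8 CPM (−3.0), while Cd300lb rose (1.32). Integrins and adhesion molecules had 3 of 24 higher and 13 lower, with Itga9 (−2.51) and Itga4 (−1.81) lower and the tetraspanin Cd9 (0.97) higher. For integrins and adhesion molecules, 6 were higher in the joint fit of 11 libraries, 5 were higher without KCl library 2 or 3, and 8 were lower in the length-adjusted fit. The costimulator Cd40 fell from 209, 205 and 194 to 60.5, 53 and 43.5 CPM (−1.96), with 3.21 ± 0.508 CPM (SD, n = 3) in control.

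In the NF-kB pathway, the main route from danger receptors to inflammatory genes, 17 of 33 fell and 7 rose (median −0.31). Ikbke, an inducible kinase of the pathway, fell from 303, 295 and 324 to 118, 119 and 130 CPM (log2 fold change −1.34 with SE 0.09, adjusted p = 2.3e-05). Tifab, an inhibitor of TRAF6 signalling, fell the most of all genes named, from 20.9, 23 and 24.1 to 0.563, 0.830 and 0.850 CPM (−4.92). The subunit genes divided, with Rela (0.42) and Nfkb1 (0.26) higher and Nfkb2 (−0.61) lower, and the adaptor Traf5 rose (1.21). The Rela call was lost with library totals as the scaling (adjusted p = 0.15), and the Nfkb1 call with that scaling (adjusted p = 0.68) and without any TCM library or KCl library 1 (adjusted p = 0.055 to 0.17). For the pathway, 3 were higher with library totals, and 11 were lower without TCM library 1, 2 or 3.

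The kappa B motif GGANTTTCC was searched on both strands. Of the 17 fallen members 14 matched, with 21 windows, and 5 windows (23.8%) of Nfkb2, Nfkbia, Tifa and Tnfaip3 held it, beside 1.25% of all windows and 0 of the 8 windows of risen members. Windows of 1 gene can overlap and are not independent. The list was drawn up by pathway, and its uncalled members were not counted apart. Whether the share goes with the fall under KCl or with membership of the list was therefore not tested. AP-1 was in 7 of these 21 windows (33.3%) and in 7.81% of all. The window of Nfkbia, the inhibitor that the pathway itself induces, was chosen after its values were seen. It is printed as the only one with the motif in its 250 bases before the start and no annotated exon base there. The sequence is on the minus strand, with 2 matches in capitals.
Nfkbia promoter, chr12:55492648-55492897: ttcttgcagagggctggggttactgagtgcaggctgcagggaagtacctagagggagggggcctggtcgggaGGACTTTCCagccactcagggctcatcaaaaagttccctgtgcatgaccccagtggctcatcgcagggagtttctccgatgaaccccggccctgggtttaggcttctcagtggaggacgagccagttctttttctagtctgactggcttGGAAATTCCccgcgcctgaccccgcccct
The farther match lies 178 bases before the start. Nfkbia had 980, 981 and 938 CPM with TCM and 720, 854 and 669 CPM with KCl (log2 fold change −0.38 with SE 0.11, adjusted p = 0.019). The call was lost without TCM library 1, 2 or 3 or KCl library 1 (adjusted p = 0.052 to 0.08, edgeR). Nfkb2 fell from 322, 326 and 337 to 214, 185 and 252 CPM, a call lost in the length-adjusted fit (adjusted p = 0.18).

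Feedback and immediate early genes varied. Socs3, which dampens signals of the interleukin 6 family, fell from 546, 547 and 556 to 119, 109 and 147 CPM (log2 fold change −2.14 with SE 0.12, adjusted p = 9.4e-06), with 6.88 ± 1.55 CPM (SD, n = 3) in control. Fos, an AP-1 subunit, fell from 74.9, 83.3 and 72.2 to 11.3, 10.1 and 9.15 CPM (log2 fold change −2.92 with SE 0.12, adjusted p = 2e-06), and control cells had 219 ± 5.30 CPM. Atf3, a stress-induced partner of the same family, rose from 346, 356 and 340 to 705, 646 and 755 CPM (1.01). The small MAF protein Mafk rose as well (1.36). Of 29 AP-1, EGR, NR4A and KLF factors, 5 rose and 10 fell. Regulators of G protein signalling had 3 of 16 higher and 9 lower, with Rgs1 (1.41) higher and the receptor kinase Grk5 (−1.14) lower. Among lineage factors the lymphoid and myeloid regulator Ikzf1 fell from 145, 148 and 157 to 40.6, 38.9 and 48.7 CPM (−1.82), and Id2, an inhibitor of E proteins, rose from 218, 228 and 201 to 477, 577 and 384 CPM (1.14).

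Inflammasome genes, which encode the sensors and caspases that mature interleukin 1 beta, had 14 of 24 lower and 5 higher (median −0.57). For inflammasome genes, 9 were lower in the length-adjusted fit. The potassium-sensitive sensor Nlrp3, named outside the rule for its role, had 233, 242 and 260 CPM with TCM, 90.3, 77.9 and 140 CPM with KCl and 249 and 273 CPM with NaCl (log2 fold change −1.26 with SE 0.20, adjusted p = 0.0011). The KCl libraries lay below all TCM and NaCl libraries, and control cells had 21 ± 1.15 CPM. The adaptor Pycard, also outside the rule, fell from 18.7, 19.4 and 15.1 to 9.22, 6.00 and 5.56 CPM (−1.36). Casp8, an initiator caspase, fell (−1.41). Casp4, the sensor of cytosolic endotoxin known as caspase-11, rose from 78.2, 82.6 and 78.3 to 190, 197 and 199 CPM (log2 fold change 1.28 with SE 0.09, adjusted p = 2e-05), and the channel Panx1 rose from 85.7, 81.1 and 70.8 to 237, 241 and 190 CPM (1.48). Casp1 itself stood at 0.22 (adjusted p = 0.13). Guanylate-binding proteins, interferon-induced GTPases that attack microbes, had 5 of 7 lower and 0 higher, such as Gbp5, from 157, 162 and 161 to 73.6, 61.1 and 76.6 CPM (−1.19). For these GTPases, 3 were lower in the length-adjusted fit and without TCM library 2 or KCl library 1. Interferon-stimulated genes had 18 of 43 higher and 10 lower. With library totals 11 were higher and 12 lower, and in the length-adjusted fit 9 and 5. The antiviral gene Rsad2 rose from 81.2, 83.8 and 81.5 to 248, 236 and 206 CPM (1.48), and the RNA sensor partner Dhx58 fell (−1.21). Without 1 library the number higher ran from 12 to 21.

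Secreted defence and matrix proteins showed large changes in single genes. Cp, the ferroxidase ceruloplasmin, fell from 59.7, 59.3 and 63.7 to 8.10, 7.47 and 10.6 CPM (log2 fold change −2.8 with SE 0.15, adjusted p = 5.4e-06), and Lcn2, which sequesters bacterial siderophores, from 11.8, 15 and 13.1 to 2.32, 2.77 and 2.09 CPM (−2.5). The complement regulator Cd55 fell from 26.2, 24.2 and 27.5 to 4.29, 4.89 and 4.77 CPM (−2.49). Mmp12, the macrophage elastase, rose from 594, 605 and 618 to 1350, 1710 and 1510 CPM (1.32), and the gelatinase Mmp9 fell from 48.1, 46.9 and 47.5 to 16.7, 13.8 and 15.8 CPM (−1.63). Procr, the endothelial protein C receptor, rose (1.13), as did the plasminogen activator Plau (0.9). Complement and efferocytosis genes had 6 of 24 higher and 10 lower. Matrix proteases and their inhibitors had 6 of 23 each way, near the background in both directions. For the complement list, 3 were higher in the length-adjusted fit, and 5 were lower in the length-adjusted fit. For the protease list, 3 were lower in the length-adjusted fit.

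In metal and lipid metabolism, the zinc exporter Slc30a1 rose from 60.5, 57.5 and 56.7 to 249, 256 and 201 CPM (log2 fold change 2.01 with SE 0.12, adjusted p = 9.4e-06). The iron exporter Slc40a1, ferroportin, rose from 115, 111 and 117 to 246, 257 and 270 CPM (1.16). Heme and iron genes had 9 of 26 higher and 10 lower. For heme and iron genes, 6 were lower in the length-adjusted fit. Nr1h3, which encodes the oxysterol receptor LXR alpha, fell from 171, 169 and 167 to 63.1, 61.2 and 51.3 CPM (log2 fold change −1.54 with SE 0.10, adjusted p = 2e-05), with 60.3 and 56 CPM with NaCl. Mylip, a ligase that degrades the LDL receptor, rose (1.3), and the fatty acid carrier of mitochondria Cpt1a fell (−1.19). Cholesterol synthesis and uptake had 4 of 24 higher and 11 lower, with Insig1 (0.65) higher and Hsd17b7 (−1.26) lower. For cholesterol genes, 7 were higher in the joint fit of 11 libraries, and 2 were higher with library totals, in the length-adjusted fit and without TCM library 2. The tricarboxylic acid cycle list had 6 of 33 higher and 16 lower (median −0.33), with Idh1 (1.31) higher and the fumarase Fh1 (−0.99) and the pyruvate dehydrogenase kinase Pdk1 (−1.56) lower. For the cycle, 3 were higher with library totals, 2 were higher in the length-adjusted fit, 8 were lower in the length-adjusted fit, and 10 were lower without KCl library 1. Glycolysis and HIF1 targets had 8 of 34 higher and 11 lower. For glycolysis, 3 were higher with library totals, 5 were higher without TCM library 1, 2 or 3, 17 were lower with library totals, and 7 were lower without KCl library 1. Lower members included the kinase Pfkfb4 (−1.35) and the hexose carrier Slc2a6 (−1.37).

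Of 16 clock genes 9 rose and 2 fell, beside 24.1% and 26.0% of all genes. Nr1d2, a REV-ERB repressor, had 30.2, 34.5 and 34.8 CPM with TCM, 137, 150 and 118 CPM with KCl and 64 and 79.8 CPM with NaCl (log2 fold change 2.02 with SE 0.12, adjusted p = 1e-05). The repressor Cry2 rose from 9.84, 12 and 10.9 to 35.3, 27.4 and 35.2 CPM (1.57), while its partner Per2 (−3.02) fell from levels of 1.06 to 1.53 CPM with TCM, and the core activator Arntl stood at 0.22 (adjusted p = 0.3). The Per2 value was −4.76 without KCl library 1, and its call was lost in the length-adjusted fit (adjusted p = 0.12). Cell cycle genes had 10 of 36 higher and 1 lower, a higher share near the background of 24.1%, with the replication factors Pcna (1.01) and Mcm7 (0.96). For the cell cycle list, 5 were higher in the length-adjusted fit, 6 were higher without TCM library 3 or KCl library 1, 3 were lower in the joint fit of 11 libraries and without KCl library 2, and 6 were lower with library totals. Actin and motility genes had 2 of 33 higher and 13 lower. For actin genes, 5 were higher without KCl library 3, and 20 were lower with library totals and without KCl library 3. Was, the activator of actin branching, fell from 58, 57 and 62.2 to 15.3, 13.5 and 24.7 CPM (−1.73), and Rhob rose (0.95). Survival and death genes of the BCL2 family had 9 of 21 higher and 4 lower, with the killers Bid (1.28) and Bcl2l11 (1.16) higher and Bak1 (−0.56) lower. With library totals 6 were higher and 6 lower. For this family, 5 were higher in the length-adjusted fit, and 2 were lower without TCM library 2 or 3. Proteasome subunits had 19 of 31 higher and 0 lower (median 0.41), for example Psmb6 at 489, 448 and 413 CPM with TCM and 1020, 1300 and 730 CPM with KCl. For the proteasome, 12 were higher with library totals and without TCM library 2 or KCl library 1, 7 were higher in the length-adjusted fit, and 10 were higher without TCM library 3. Lysosome and proton pump genes had 22 of 34 higher and 2 lower. For the lysosome, 11 were higher with library totals, 13 were higher in the length-adjusted fit, 14 were higher without TCM library 3, 4 were lower with library totals, and 5 were lower without KCl library 3.

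The genes of the ribosome rose almost throughout, and unevenly between the KCl libraries. Of 78 cytosolic ribosomal proteins, 72 rose and 1, Rpl15, fell (−0.39), with a median of 0.90. The call on Rpl15 was lost without KCl library 1, TCM library 1 or TCM library 2 (adjusted p = 0.097, 0.12 and 0.1). Rpl35a had 145, 131 and 120 CPM with TCM, 422, 911 and 240 CPM with KCl and 156 and 129 CPM with NaCl (log2 fold change 1.98 with SE 0.40, adjusted p = 0.0038). Rps21 had 160, 145 and 138 CPM with TCM and 417, 817 and 255 CPM with KCl (1.74). In both genes KCl library 2 was highest and library 3 lowest of the KCl group. Nuclear-encoded respiratory chain genes had 36 of 60 higher and 5 lower (median 0.52) with the same order: Ndufa2 of complex I had 98.3, 83.2 and 79.6 CPM with TCM and 257, 488 and 144 CPM with KCl (1.76). Genes of the same chain encoded in mitochondrial DNA had 0 of 10 higher and 4 lower, such as mt-Nd1 from 1390, 1400 and 1590 to 959, 1030 and 1070 CPM (−0.53). For the mitochondrially encoded genes, 2 were lower in the length-adjusted fit and without TCM library 2 or 3 or KCl library 1. Nuclear and small noncoding RNAs had 12 of 19 higher and 1 lower. Snhg8, a snoRNA host transcript, had 17.9, 16.9 and 14.6 CPM with TCM and 59.3, 130 and 37 CPM with KCl (2.18). The lower one was Neat1, the long scaffold RNA of nuclear paraspeckles, with 1460, 1440 and 1580 CPM with TCM and 256, 244 and 194 CPM with KCl (log2 fold change −2.7 with SE 0.12, adjusted p = 3.4e-06).

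Transcript length moved with these groups. In the quintile of genes with the shortest transcripts (57 to 754 bases) the median log2 ratio to the TCM mean was 0.13, 0.15 and 0.06 in KCl libraries 1, 2 and 3, and −0.02 and −0.07 in NaCl libraries 1 and 2. In quintile 4 (1931 to 3003 bases) it was −0.15, −0.18 and −0.08 with KCl. In quintile 5, the longest transcripts, it was nearer to 0, at −0.12, −0.15 and −0.03 with KCl. With the slope as a covariate 13 of 78 ribosomal protein genes were higher and 1 lower, 0 of 60 respiratory chain genes were higher and 5 lower, and 3 of 19 noncoding RNAs were higher. The calls on Rpl35a, Rps21, Ndufa2 and Snhg8 were lost (adjusted p = 0.85, 0.79, 0.9 and 0.57), and they also missed the threshold without a low-count filter (adjusted p = 0.074, 0.071, 0.078 and 0.053). The slopes of the groups do not overlap, so a treatment effect on short transcripts and a length bias cannot be told apart. Without KCl library 2 alone, 33 respiratory chain genes and 70 ribosomal protein genes were called higher. Over the 6 fits that leave out 1 library the lowest counts were 24 and 61. For the respiratory chain, 0 were higher in the length-adjusted fit, 1 was lower without TCM library 1, and 2 were lower without TCM library 2 or 3 or KCl library 1.

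**Figure D4:**
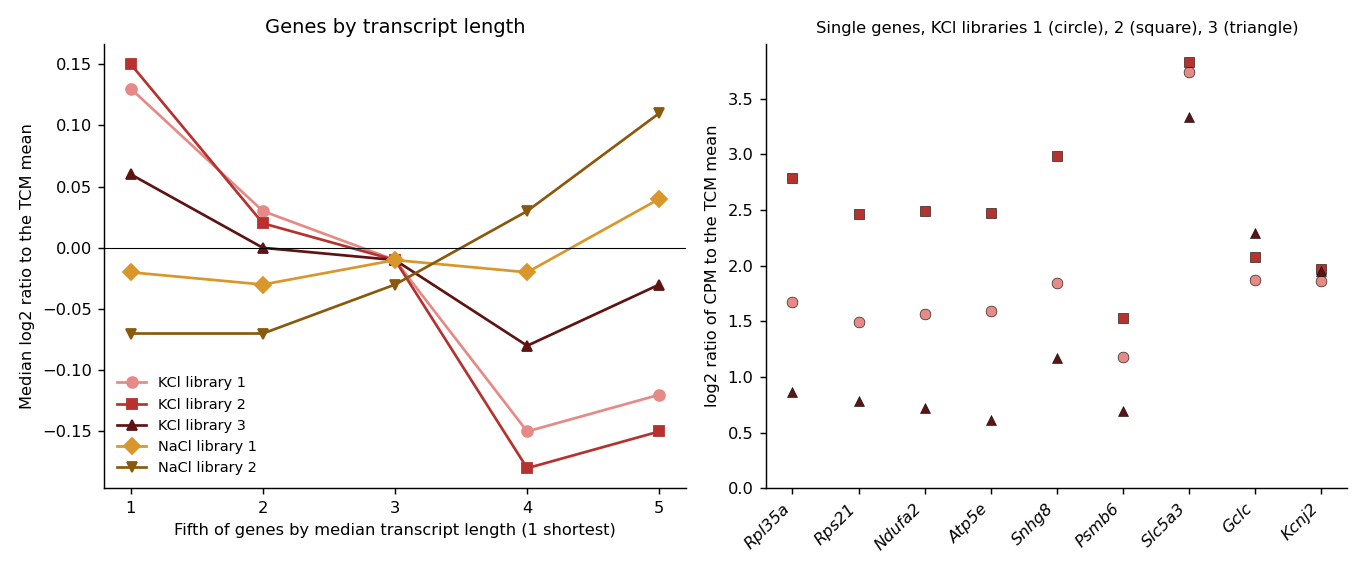
Left, median log2 ratio of level to the TCM mean (y axis) in 5 equal groups of genes ordered by median transcript length (x axis), one line per KCl or NaCl library. Right, the same log2 ratio for 9 single genes in the 3 KCl libraries: short-transcript genes from Rpl35a to Psmb6 spread with library 2 on top, while Slc5a3, Gclc and Kcnj2 lie close together.

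The remaining genes at the extremes came from no single pathway. The organic anion carrier Slco4a1 had 21.8, 21.4 and 25.6 CPM with TCM, 279, 244 and 325 CPM with KCl and 260 and 290 CPM with NaCl, and the salts overlapped. Setd1a, a histone H3K4 methyltransferase, rose from 24.3, 21.6 and 21.9 to 137, 163 and 108 CPM (log2 fold change 2.58 with SE 0.16, adjusted p = 1.2e-05). A transcript of the opposite strand, 9430064I24Rik, overlaps it. Mrps6, a mitochondrial ribosomal protein, rose from 22.1, 18.5 and 16.2 to 138, 119 and 116 CPM (log2 fold change 2.71 with SE 0.14, adjusted p = 5e-06). It shares its strand and start region with Slc5a3 (chromosome 16, 92058270 to 92112227 and 92058322 to 92087473 in GRCm38). Reads of the pair may thus not be fully separable, and the rise of each gene by itself is uncertain. Tlcd2 (2.86) and Gfod1 (2.77) rose from levels of at most 2.50 CPM with TCM. Tlcd2 overlaps Mir22hg on the same strand, so its rise is uncertain too. Nr2c2ap (39.2, 106 and 27.5 CPM with KCl) and the snoRNA host Zfas1 (94.5, 153 and 52.1 CPM) both overlap a gene of the opposite strand and had KCl library 2 highest, and the Nr2c2ap call was lost in the length-adjusted fit (adjusted p = 0.45). The strand setting of the counting is not given in the sources used here.

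At the other end, the dicarboxylate carrier Slc13a3 fell from 134, 125 and 132 to 6.69, 3.60 and 6.08 CPM (−4.57), while control cells had 3.79 ± 0.302 CPM (SD, n = 3). The scavenger receptor Marco had 1070, 974 and 951 CPM with TCM and 71.7, 95.5 and 60.9 CPM with KCl. Themis2, a signalling adaptor of myeloid and B cells, fell from 28, 24.8 and 29.9 to 2.25, 1.94 and 2.35 CPM (log2 fold change −3.65 with SE 0.15, adjusted p = 2e-06). Rtl5, derived from a retrotransposon, fell from 78.4, 74.6 and 75.1 to 5.91, 6.83 and 6.47 CPM (log2 fold change −3.58 with SE 0.11, adjusted p = 1.2e-06), with Nhsl2 on the opposite strand. March1, a ligase that removes MHC class II from the surface, fell from 137, 143 and 141 to 13.2, 13.7 and 15.2 CPM (log2 fold change −3.32 with SE 0.11, adjusted p = 1.2e-06), whereas of 15 genes of class II presentation 2 rose and 3 fell. For class II genes, 0 were higher and 6 lower with library totals. The last of the 12 lowest were Gbgt1 (−3.85), Ppm1n (−3.71), Tha1 (−3.2) and Vnn3 (−3.16). Lack of overlap between the groups was a condition of their choice. Each held its call when any 1 library was left out.

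The contrast with NaCl asks what potassium adds beyond the same concentration of another salt. It rests on 3 against 2 libraries, and its count is unstable. In the fit of those 5 libraries 8 of 13367 genes (0.0598%) passed, and 4151 had an unadjusted p under 0.05. In the fit of the 11 libraries of the strain, in which groups share 1 spread per gene, 4591 of 14519 (31.6%) passed, 2233 higher and 2358 lower with KCl. DESeq2 on the 5 libraries called 2002. All 8 genes of the smaller fit were called in the same direction in the larger fit. Without KCl library 1, or without either NaCl library, 0 genes passed by the same edgeR test, with 2416, 1997 and 1499 at an unadjusted p under 0.05. Without KCl library 2 the number was 19, and without KCl library 3 it was 5396.

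Of the 8 genes, 7 were lower with KCl than with NaCl. Il1b had 737, 715 and 739 CPM with KCl and 2010 and 1800 CPM with NaCl (log2 difference −1.37, SE 0.12, adjusted p = 0.027). March1 had 13.2, 13.7 and 15.2 against 38.3 and 37.2 CPM (−1.42), C5ar1 75.5, 82.7 and 73.2 against 182 and 175 CPM (−1.2) and the integrin alpha 4 gene Itga4 35.8, 40.0 and 39 against 86.1 and 90.1 CPM (−1.2). Neat1 (−1.46), the semaphorin Sema4a (−1.25) and the channel regulator Kctd12 (−1.03) complete the lower genes, and Scgb1a1 of the lung markers was the higher one (3.43). In these 7 lower genes the NaCl libraries lay between those of TCM and KCl.

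Other differences from NaCl come from the 11-library fit alone, which assumes that KCl libraries vary like the rest. The edgeR fits of 6 and of 5 libraries also used 1 spread per gene for both groups. With limma weights per group, which let the groups differ in spread, 6373 genes were called between KCl and TCM. Of the main calls 6162 were shared in direction. Tlr8 was 49.5 and 56.1 CPM with NaCl and 5.49, 5.53 and 12.9 CPM with KCl (log2 difference −2.7, adjusted p = 0.0003), and Nlrp3 also differed (−1.35, adjusted p = 0.00079). Atf4 (1.34, adjusted p = 0.0003), Cxcr4 (1.38, adjusted p = 0.0002) and Id2 (0.99, adjusted p = 0.00073) were higher with KCl. Slc6a12 was lower with KCl than with NaCl (−0.6, adjusted p = 0.0021). For Il10 (−0.28, adjusted p = 0.41), Nr1h3 (0.01, adjusted p = 0.96), Slco4a1 (0.04, adjusted p = 0.84) and Prdx6 (0.14, adjusted p = 0.2) no difference between the salts passed, which does not show that they act alike.

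**Figure D5:**
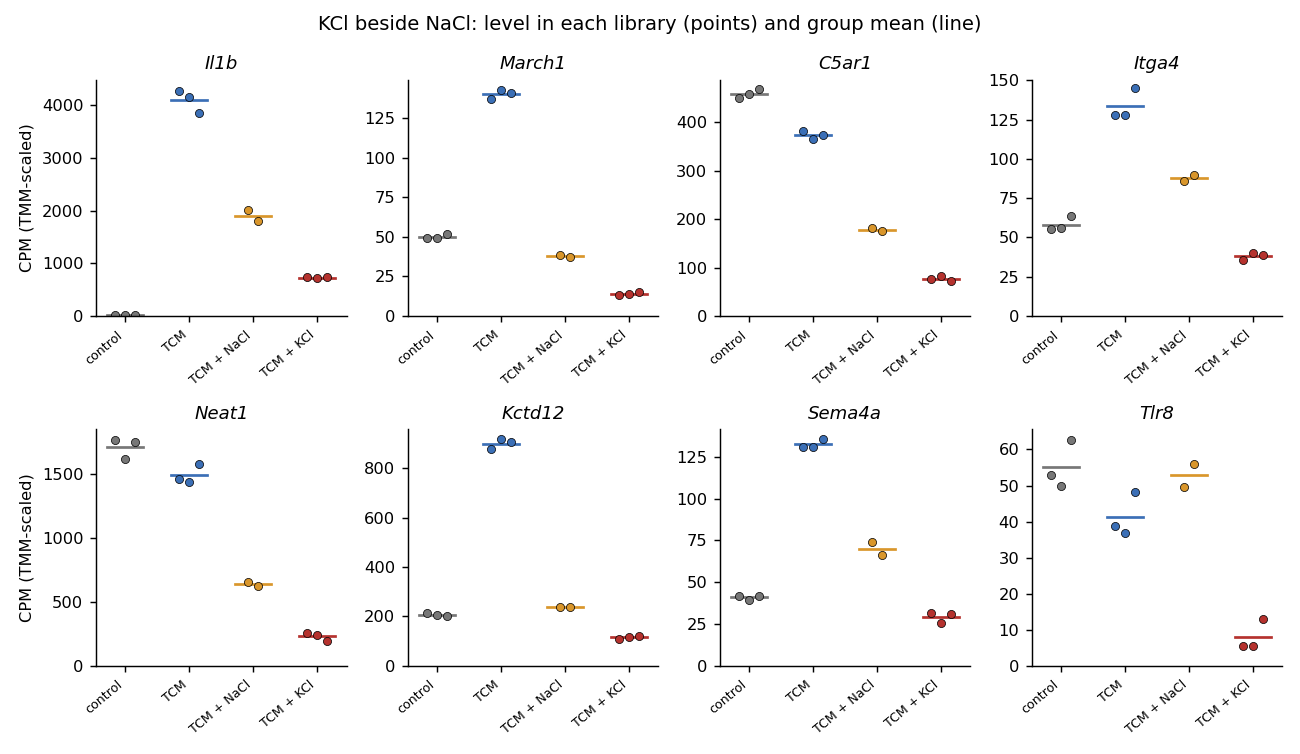
Level (CPM scaled by TMM factors, linear axes from 0) of 7 genes called lower with KCl than with NaCl in the 5-library fit, and of Tlr8, chosen after its values were seen, in each library (points) with group means (lines). Tlr8 lies at 49.5 and 56.1 CPM with NaCl and at 5.49 to 12.9 CPM with KCl.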

How the data were processed

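RNA was measured as raw counts per Ensembl gene in a table the authors deposited, with 1 column per library, each matched to a sample title. Which aligner, counter, build and strand setting made it is not given in the sources used here. The submitters' processing notes list DESeq2 1.30.1, without its role. Symbols and lengths came from GENCODE M21 (GRCm38), and 260 identifiers without a symbol (0.0144% of counts) were kept.

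Counts of the 6 libraries were tested with edgeR 4.0.16 in R 4.3.3 (quasi-likelihood F test, robust, TMM, default low-count filter), with Benjamini-Hochberg adjustment over all genes tested and a threshold of 0.05. The contrast with NaCl used 5 libraries. Levels are CPM scaled by TMM factors over 11 libraries, and a gene at 0 counts is below 3 counts, for counting error only. The fits were tested on simulated counts.

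Members and lists were chosen with earlier results of these data known. The rule named Kcnj2 and Nfat5, the 12 highest and 12 lowest called genes whose mean reached 10 CPM in either group and whose groups stayed apart, and up to 4 called members per list; other genes illustrate their list's count and were chosen after their values were seen. Alternatives were a joint fit of 11 libraries, DESeq2 1.42.0, limma 3.58.1 with weights per group, other scalings and filters, a replicate block, a length slope covariate and leaving out each library. Same-numbered libraries correlated above 0.1 in 2 of 3 pairs (0.066 to 0.488), and those of unlike number at −0.427 to 0.336. With 3 libraries per group these values cannot decide whether the numbers pair the libraries. The main fit left them unpaired.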

Additional observations from a re-analysis of the deposited data

How the results depend on the processing

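The count of 6512 genes called between KCl and TCM ran from 4788 to 8094 when 1 library was left out, and the 2424 genes of at least 2-fold from 2156 to 3066. With the length slope as a covariate the counts were 3666 and 1437, and 2895 genes kept their call and direction. Restricting to transcripts of at least 1500 bases, added after the slopes were seen, re-adjusted the p-values of the main fit. It gave 3208 and 1254 of 6549 genes, where fewer were tested. There 40.1% of called genes were higher, beside 48.1% in the main fit. The median log2 fold change was −0.11, beside −0.02. With a replicate block the counts were 6737 and 2386, 6330 calls were shared in direction, and of the genes examined by name Nfkb1 lost its call (adjusted p = 0.053). The 8 genes between KCl and NaCl became 4591 in the joint fit, 2002 with DESeq2, 2901 without a filter, 2827 with limma weights (added after seeing the data) and 0 to 5396 without 1 library. The fit with the replicate block could use only numbers 1 and 2, so it also left out KCl library 3; it called 5497, where leaving out that library alone gave 5396. The cause was not tested. Of the 282 genes examined by name, 12 turned with the length slope as a covariate: the log2 values were 0.01 for Lrrc8d, −0.15 for Tob1, −0.33 for Psme2, −0.06 for Lgmn, −0.28 for Cd59a, −0.21 for Hsp90b1, 0.00 for Polr1b, −0.02 for Atp5e, 0.03 for mt-Co1, −0.35 for Hist1h4i, −0.22 for Chd7 and 0.09 for Hdac5. No other alternative turned any of them. Library 2 of the KCl group held 13503869 counts, the fewest of the 6, which limits low genes there.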
